A study of Mus musculus with 32 samples.

Results

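Calcium leaves the cytoplasm through a small set of transporters, and 8 genes of this set were examined in mouse frontal cortex (FCtx). They are the plasma membrane calcium pumps Atp2b1, Atp2b2, Atp2b3 and Atp2b4 (PMCA1 to PMCA4), the endoplasmic reticulum pump Atp2a2 (SERCA2) and the sodium-calcium exchangers Slc8a1, Slc8a2 and Slc8a3 (NCX1 to NCX3). Every probe of the array that carries one of these 8 gene symbols was taken, which gave 17 of 25697 probes and 8 of 18138 symbols. The genes were chosen because Atp2b1 and Slc8a2 were already known to differ in opposite directions between ethanol-treated and control arrays, so the ethanol comparison of these genes, by chip too, is a description. No p-value of it is given for a member, and nothing is read from counts of members called in it.

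Each mouse gave 1 array, and the arrays came on Illumina MouseRef-8 v2.0 BeadChips, glass slides (chips) with 8 arrays apiece whose probes are each carried by many beads. The mice were F1 hybrids of C57BL/6J and FVB/NJ. The labels name a single direction of the cross, whereas the Methods describe females of reciprocal crosses. The 20 treated animals had a bottle of 20% ethanol beside one of water in limited sessions of the dark phase over 20 days, and the 12 controls are labelled only as untreated animals of the same strain and tissue. Ethanol-treated mice filled chips 1 and 2 (8 arrays each) and controls filled chip 4 (8 arrays). Chip 3 was mixed, with 4 ethanol-treated mice at odd positions (A, C, E, G) and 4 controls at even ones (B, D, F, H). Treatment therefore largely coincides with chip, and on chip 3 treatment and position cannot be told apart. On every chip the odd positions held the lower mouse numbers and the even positions the higher.

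PMCA and SERCA pumps spend ATP to move calcium against its gradient, the former out of the cell and the latter into the endoplasmic reticulum. PMCAs bind calcium tightly and are stimulated by calmodulin, which suits them to holding resting calcium low. Exchangers of the NCX family let sodium run into the cell in return for calcium going out, have a lower affinity and a higher capacity, and depend on the sodium gradient kept by the sodium pump. In neurons these transporters clear the calcium that enters during action potentials and synaptic activity. Atp2b1 is expressed in most tissues, Atp2b2 and Atp2b3 mainly in excitable cells, and Slc8a2 mainly in brain.

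A probe entered the tests when its detection p-value was under 0.01 on 24 or more arrays out of 32. This left 9 of the 17 probes, which covered Atp2b1, Atp2b2, Atp2b3, Atp2a2, Slc8a1 and Slc8a2. Detected probes numbered between 9480 and 11544 per array, and any pair of arrays correlated between 0.984 and 0.996. The array with the fewest detected probes was that of control mouse C66 on chip 4. Arrays of chip 4 were dimmer, with a median raw signal of all probes between 146.2 and 167.7 against 166.1 to 203.3 on the other chips. Levels below are quantile-normalized values on a log2 scale after a variance-stabilizing transform, and a level of one probe was not set against that of another.

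The sequences of the probes on which the results turn are shown first, 5′ to 3′ as deposited. The Atp2b1 probe (ILMN_2878021) was placed by the file on chromosome 10, forward strand, in separate blocks at 98479642 to 98479664 and 98481349 to 98481375, so that it reads transcripts in which these blocks are joined. Capitals mark the 27 bases of the second block.
Atp2b1: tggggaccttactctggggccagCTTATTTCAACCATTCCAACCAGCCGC
Both tested Slc8a2 probes lay on chromosome 7, forward strand, at 16745086 to 16745135 and at 16745437 to 16745486. They share no sequence and read the gene independently of each other. The first 30 of the 50 bases are shown for these and for the brighter Atp2b2 probe, which lay on chromosome 6, reverse strand, at 113695954 to 113696003. The genome build behind these positions is not named in the table, and where each probe falls in exons or UTRs was not analysed here. PMCA genes are close paralogs, and how much a probe picks up from another member of the family was not tested.
Slc8a2 (ILMN_2715429): gcacatcttgaacccactacttctgacatt
Slc8a2 (ILMN_2960263): agaggagaccgagggtcccagaggaccaat
Atp2b2 (ILMN_3113303): gagccaggttctcagacaggagcagaggaa

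Atp2b1 was the member with the highest signal in ethanol-treated mice relative to controls. Its level ran from 9.07 to 9.42 in the 20 ethanol-treated mice (median 9.24) and from 8.46 to 9.12 in the 12 controls (median 8.73). Of the ethanol-treated mice, 19 lay above the highest control and all 20 above the control median. The difference was 0.46 on the log2 scale (SE 0.053), or 1.37-fold on this scale. The raw signal, before any normalization, ran from 720 to 1057 in ethanol-treated mice and from 275 to 864 in controls. These ranges also carry the dimness of the chip 4 arrays. On chip 3 the raw signal ran from 720 to 1057 in ethanol-treated mice and from 765 to 864 in controls, with overlap. Bulk tissue was measured, in which fewer cells of a type and less RNA per cell cannot be told apart.

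**Figure D1:**
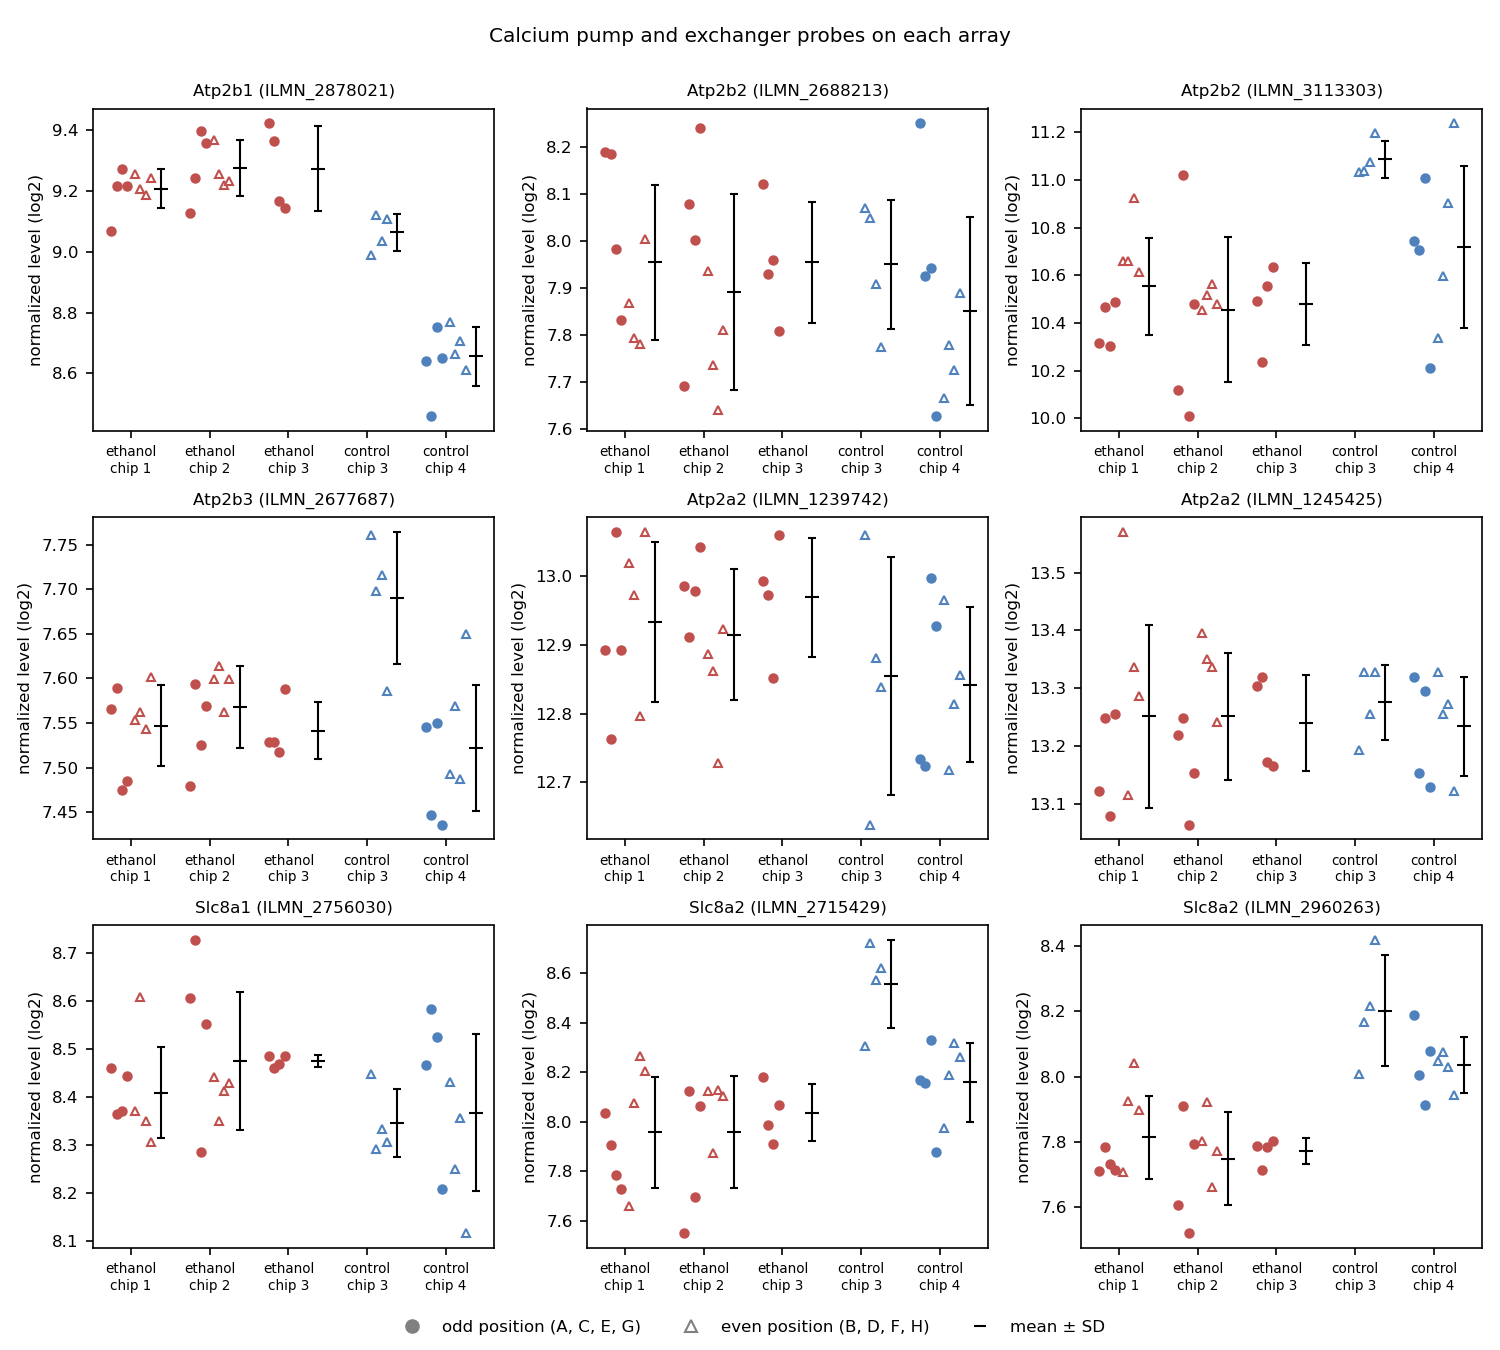
Normalized level (log2) of the 9 tested probes on every array, by treatment and chip; filled circles are odd positions, open triangles even positions, and bars give the mean ± SD of the set. For Atp2b1 the 16 ethanol-treated mice of chips 1 and 2 lie above all 8 controls of chip 4, with the 4 controls of chip 3 in between, and both Slc8a2 probes are highest in the controls of chip 3.

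The 4 controls of chip 3 stood apart from the 8 controls of chip 4 for Atp2b1. On chip 3 the level was 9.42, 9.36, 9.17 and 9.14 in the ethanol-treated mice and 8.99, 9.12, 9.04 and 9.11 in the controls. These groups did not overlap, but the gap between the lowest ethanol-treated mouse and the highest control was narrow. Controls of chip 4 ran from 8.46 to 8.77, below every control of chip 3, and the controls of these chips failed to overlap for 7.50% of all tested probes. The ethanol-minus-control difference was accordingly 0.21 (SE 0.068) within chip 3 and 0.59 (SE 0.040) between chips 1 and 2 and chip 4, and the latter was 0.61 among odd and 0.56 among even positions.

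The difference between controls does not involve ethanol and was fitted by limma at even positions, where both chips held 4 controls. These control arrays also entered the comparison by which the genes were chosen. For the members the values below are therefore a description, and nothing is read from their p-values or counts. Atp2b1 was 0.38 higher in the controls of chip 3 (SE 0.060, limma adjusted p = 0.0033). At an FDR below 1%, 1 of 9 member probes was called, against 143 of 10187 probes (1.40%) in either direction. Without control mouse C66 the difference was 0.35 (adjusted p = 0.0063). The call was lost with normexp background correction (0.49, adjusted p = 0.025) and with median scaling (0.55, adjusted p = 0.21). The other 8 member probes were not called, of which ILMN_2715429 of Slc8a2 came nearest (0.37 higher, SE 0.091, adjusted p = 0.028). All 9 differences were above 0, and 6 of the 9 had an unadjusted p below 0.05, against 2293 of 10187 probes. Without control mouse C66, ILMN_1245425 of Atp2a2 and Slc8a1 were no longer above 0 (-0.01 and -0.00014). Ethanol-treated mice of chip 3 were likewise set against those of chips 1 and 2 at odd positions. Atp2b1 differed by 0.04 (95% interval -0.11 to 0.18), and limma called 0 of 9 member probes and 0 of 10187 probes (0%) at an FDR below 1%, with 0 and 965 at an unadjusted p below 0.05.

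The difference within chip 3 was also set against that between chips in a single limma fit. It is built from the values by which the genes were chosen and is a description, with no test for the members. For Atp2b1 the difference within chip 3 was smaller by 0.38 (SE 0.077). Leaving out each array of chip 3 in turn gave -0.43 to -0.33, and median scaling gave -0.48. Atp2b3 was at -0.18 (SE 0.055). At an FDR below 1% the fit called 1 of 9 member probes and 364 of 10187 probes (3.57%), from which nothing is read. What sets the controls of chips 3 and 4 apart was not tested.

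**Figure D2:**
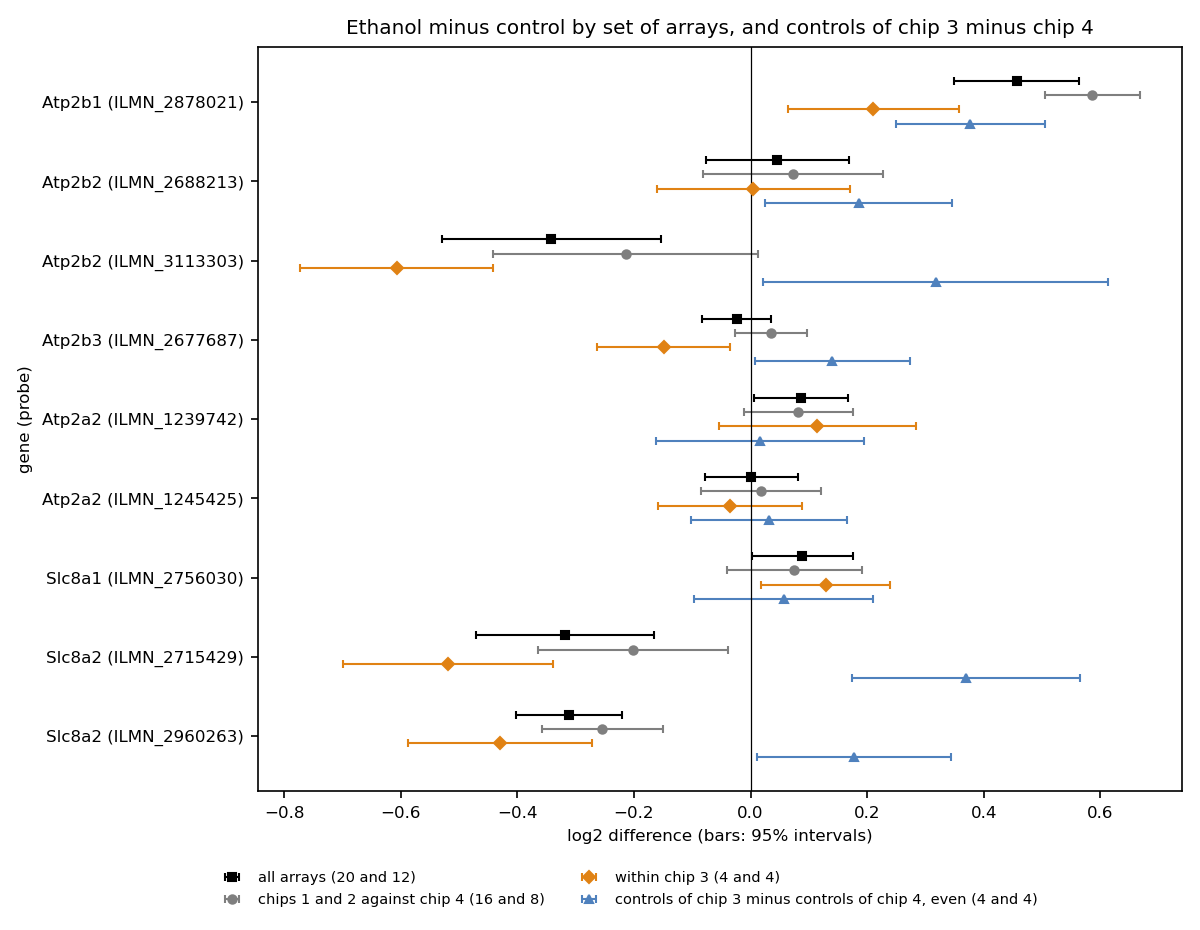
Log2 differences of the 9 tested probes with 95% intervals: ethanol minus control over all arrays, between chips 1 and 2 and chip 4, and within chip 3, and controls of chip 3 minus controls of chip 4 at even positions. Atp2b1 lies right of 0 in every comparison, with 0.59 between chips and 0.21 within chip 3, whereas both Slc8a2 probes lie left of 0 in every ethanol comparison.

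Slc8a2 ran the other way, in both of its probes. ILMN_2960263 ran from 7.52 to 8.04 in ethanol-treated mice (median 7.78) and from 7.91 to 8.42 in controls (median 8.06). ILMN_2715429 ran from 7.55 to 8.26 (median 8.05) and from 7.88 to 8.72 (median 8.28). All 20 ethanol-treated mice lay below the control median with either probe, and 17 and 6 of them lay below the lowest control. The differences were -0.31 (SE 0.045) and -0.32 (SE 0.075), or 1.24-fold and 1.25-fold lower. Both probes were dim, at 1.77 and 2.21 times the median signal of undetected probes, and normexp background correction gave -0.67 and -0.59, farther from 0.

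Within chip 3 the Slc8a2 groups did not overlap. ILMN_2715429 read 8.18, 7.99, 7.91 and 8.07 in ethanol-treated mice and 8.30, 8.72, 8.57 and 8.62 in controls. ILMN_2960263 read 7.79, 7.71, 7.79 and 7.80 in ethanol-treated mice and 8.01, 8.17, 8.22 and 8.42 in controls. The differences were -0.52 (SE 0.084) and -0.43 (SE 0.073), against -0.20 (SE 0.080) and -0.25 (SE 0.051) between chips 1 and 2 and chip 4, where the groups overlapped. Odd positions gave -0.27 and -0.33, and even positions gave -0.13 and -0.18. The fit with chip and odd or even position as terms gave -0.37 (SE 0.139) and -0.36 (SE 0.093), and 0.24 (SE 0.076) for Atp2b1.

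Atp2b2, the pump of spines and fast-firing neurons, gave unlike answers with its probes. ILMN_3113303, the brighter at 13.4 times the undetected level, ran from 10.01 to 11.02 in ethanol-treated mice (median 10.49) and from 10.21 to 11.24 in controls (median 10.96). A single ethanol-treated mouse of 20 lay above the control median, but only 2 lay below the lowest control, so the groups overlapped widely. The difference was -0.34 (SE 0.093). On chip 3 the same probe read 10.49, 10.24, 10.56 and 10.63 in ethanol-treated mice and 11.03, 11.04, 11.07 and 11.20 in controls, with no overlap and a difference of -0.61 (SE 0.077). Between chips 1 and 2 and chip 4 it was -0.21 (SE 0.111), and -0.14 without control mouse C66, which had the highest level of that chip. ILMN_2688213, at 1.86 times the undetected level, gave 0.05 (SE 0.060) over all arrays and 0.00 (SE 0.077) within chip 3.

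The remaining tested members differed little. Atp2a2 was by far above background, at 58.7 and 73.3 times the undetected level, and its probes gave 0.09 (SE 0.040) and 0.00 (SE 0.039) over all arrays. Slc8a1, the exchanger best known from heart but also present in neurons, gave 0.09 (SE 0.043). Its chip 3 levels were 8.48, 8.46, 8.47 and 8.49 in ethanol-treated mice and 8.45, 8.29, 8.33 and 8.31 in controls, which did not overlap and differed by 0.13 (SE 0.052). Between chips 1 and 2 and chip 4 the Slc8a1 difference was 0.07 (SE 0.056), with overlap. Atp2b3 gave -0.02 (SE 0.029) over all arrays. On chip 3 it read 7.53, 7.53, 7.52 and 7.59 in ethanol-treated mice and 7.76, 7.70, 7.72 and 7.59 in controls, where the highest ethanol-treated mouse matched the lowest control to 2 decimals.

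Among the 9 tested probes, 1 (Atp2b1) was called higher and 3 (both Slc8a2 probes and ILMN_3113303 of Atp2b2) were called lower at an FDR below 1%. Over all tested probes 832 of 10187 (8.17%) were called, 353 higher (3.47%) and 479 lower (4.70%). Since this comparison chose the genes, nothing is read from the larger share among them. The median difference was 0.00 over the 9 probes and 0.00 over all probes. Within chip 3, 3 of 9 were called, all lower, against 2.67% of all probes in either direction and 1.41% lower, and 5 of 9 did not overlap, against 15.2%. Between chips 1 and 2 and chip 4, 2 of 9 were called against 11.8%, and Atp2b1 was the 1 member without overlap, against 0.775%. With chip as a fixed block 1 of 9 was called (ILMN_2960263 of Slc8a2) against 0.147%. With chip as a random block 2 of 9 were called against 0.668%, and without control mouse C66 3 of 9 against 5.54%, ILMN_3113303 of Atp2b2 being the one lost. With chip and position as terms limma called 0 of 9, against 0.00982% of all probes. At an unadjusted p below 0.05 there were 4 of 9, against 956 of 10187 probes. This is still the comparison that chose the genes, and nothing is read from these counts.

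The members that failed the detection filter were at or near background. Atp2b4 was detected on 16 arrays by ILMN_1217742 (11 ethanol-treated, 5 control) and on 0 arrays by its other probes. All 3 probes of Slc8a3, the exchanger of skeletal muscle and parts of the brain, were detected on 0 arrays, with signals 0.953 to 1.03 times the undetected level. No level is given for Slc8a3. Nearest the filter, ILMN_2677687 of Atp2b3 passed with 26 arrays (18 ethanol-treated, 8 control), and ILMN_1243177 of the same gene did not with 20 (12 and 8). ILMN_3038944 of Atp2b2 was detected on 5 arrays.

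Chips 1, 2 and 4 hold a single treatment each, so comparisons within them are independent of ethanol. Since odd positions held the lower mouse numbers, position and mouse order cannot be told apart in them. Odd and even positions of these chips, with chip as a block, differed for 399 of 10187 probes (3.92%) at an FDR below 1%, and limma called 0 of 9 member probes, with 3 at an unadjusted p below 0.05 against 2889 of 10187 probes. Nearest was ILMN_2688213 of Atp2b2, higher at odd positions by 0.19 (SE 0.062, adjusted p = 0.038). ILMN_2715429 of Slc8a2 was at -0.15 (SE 0.071, adjusted p = 0.18) and ILMN_3113303 of Atp2b2 at -0.17 (SE 0.10, adjusted p = 0.26). On chip 3 position and treatment cannot be told apart. Atp2b1 was at -0.03 (SE 0.037, adjusted p = 0.69). Ethanol-treated mice of chips 1 and 2 were compared as well, and limma called 0 of 9 member probes against 0.0687% of all probes, with 0 of 9 at an unadjusted p below 0.05. The Atp2b1 difference there was -0.07 (95% interval -0.16 to 0.02).

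Mice within a set differed by unlike amounts from gene to gene. A set holds the 4 mice that share treatment, chip and odd or even position, and there were 8 sets. The SD within sets was 0.259 for ILMN_3113303 of Atp2b2, above that of 99.2% of tested probes, and 0.190 for ILMN_2715429 of Slc8a2 (above 96.9%). Atp2b1 was ordinary at 0.095, where the median of all tested probes was 0.099. Atp2b3 was among the least variable at 0.054, on a probe at 1.33 times the undetected level. Background compresses the spread of so dim a probe, so nothing is read from this SD.

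The genes were then correlated across the 32 mice after each set was centred on its mean, each gene by its brightest tested probe, with p from 100000 permutations within sets. Of 15 pairs, 1 had an adjusted p below 0.05. Atp2b2 and Slc8a2 rose and fell together among mice of a set (r = 0.61, permutation p = 0.0027, adjusted p = 0.040; rho = 0.57, permutation p = 0.0062, adjusted p = 0.093). Without the 2 mice farthest from the Atp2b2 median r was 0.58. By rank no pair passed, and under normexp the adjusted p of this pair was 0.069. Atp2b1 and Slc8a2, which differed in opposite directions between treatments, had no correlation past the threshold within sets (r = 0.10, permutation p = 0.65, adjusted p = 0.75; rho = 0.03, permutation p = 0.88, adjusted p = 0.98). Centred only within the 2 treatment groups, which leaves differences between chips in, this pair had r = 0.49 (permutation p = 0.0083, adjusted p = 0.031), and 0.31 without the 2 farthest mice. The permutations there exchanged mice across chips, so this p does not separate covariation among mice from differences between chips. Probes of the same gene were themselves only loosely related, with r of 0.43 for Slc8a2, 0.30 for Atp2b2 and -0.18 for Atp2a2. None of these 3 passed (permutation adjusted p of 0.23, 0.35 and 0.40).

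**Figure D3:**
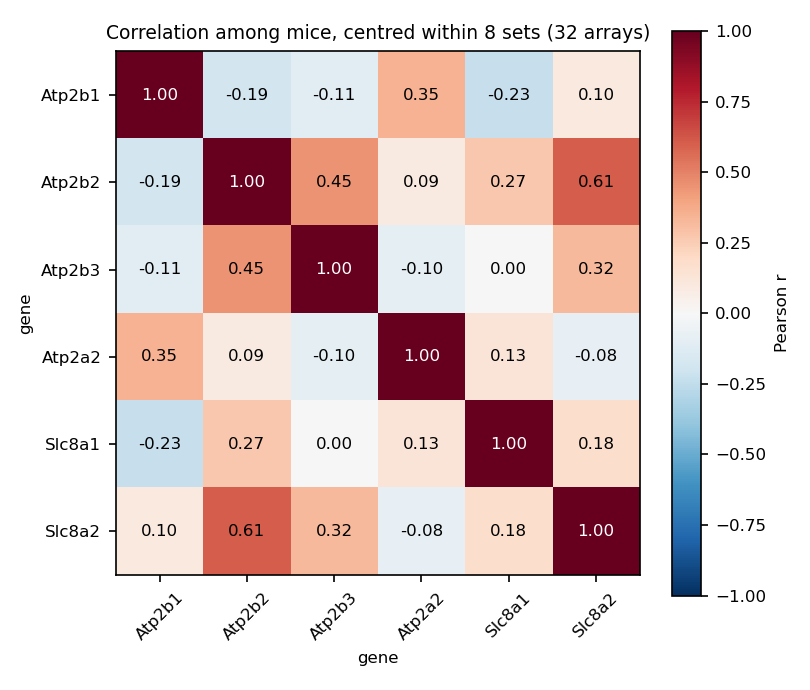
Pearson r across 32 arrays between the 6 tested genes, each by its brightest probe and centred within 8 sets of treatment, chip and odd or even position. The strongest cell off the diagonal is Atp2b2 with Slc8a2 (0.61), and Atp2b1 with Slc8a2 is at 0.10.

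The genes whose probes followed each member most closely were named by the same correlation over the 32 centred arrays. For Atp2b1 they were Kif21a (r = 0.67), Rnf170 (0.63), 2610024G14Rik (0.63), Alcam (0.62) and Wdr37 (0.62). Kif21a encodes a kinesin motor and Alcam a cell adhesion molecule. For Slc8a2 they were Iqsec2 (0.84), Axl (0.83), Fchsd2 (0.82), 2310067B10Rik (0.82) and Atp9a (0.81). Iqsec2 is an exchange factor of excitatory synapses. These are the highest of 10187 values each and are given as a description.

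Other genes that handle calcium or feed the exchangers were taken from a list grouped by function. Of 62 listed genes 51 were on the array with 71 probes, and 41 probes of 35 genes were tested. None was called higher and 2 (4.88%) were called lower in ethanol-treated mice, against 3.47% and 4.70% of all probes (8.17% in either direction). The median difference was 0.01. Within chip 3, 3 of the 41 probes were called, all higher (both of Calb2 and that of Atp1b3, named after their values were seen), against 2.67% in either direction. Atp1b2, the glial and neuronal sodium pump subunit also known as AMOG, fell by 0.27 (SE 0.054, limma adjusted p = 8.3e-04), with -0.30 within chip 3 and -0.25 between chips. Hpca, which encodes the neuronal calcium sensor hippocalcin, fell by 0.22 (SE 0.053, limma adjusted p = 0.0034), with -0.23 and -0.21. Neither was called with chip as a block.

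By function, 1 of 5 tested sodium pump probes and 1 of 12 probes of buffers and sensors were called. Of the 6 probes of other calcium pumps and exchangers, 6 of store release channels, 3 of store-operated entry and 7 of mitochondrial calcium handling, 0 were called. Of the pump partners, Nptn (neuroplastin, an obligatory PMCA subunit) was at 0.06 (SE 0.039, adjusted p = 0.26) and Calr (calreticulin, which binds calcium in the reticulum) at -0.04 (SE 0.060, adjusted p = 0.70). At an FDR below 10%, 1 of the 41 was higher and 4 were lower, against 11.8% and 13.5% of all probes.

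**Figure D4:**
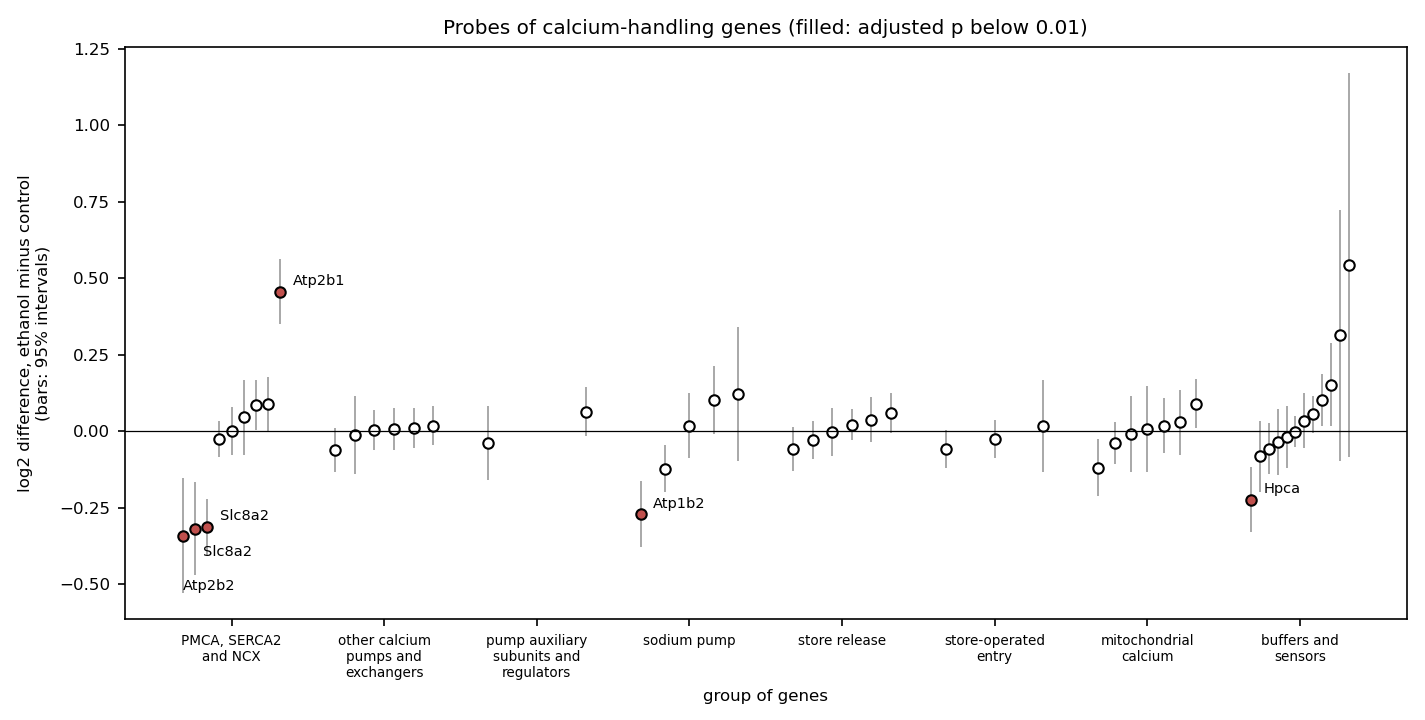
Log2 difference, ethanol minus control over all arrays, with 95% intervals, for the 9 member probes and the 41 probes of other calcium-handling genes by group; filled points have an adjusted p below 0.01. Outside the pumps and exchangers, Atp1b2 (-0.27) and Hpca (-0.22) are the filled points, while the remaining probes lie open.

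Markers of cell types were compared between the same groups. List means, medians and counts of called markers use the brightest tested probe of each gene. Of 7 neuronal markers 4 were tested, and the cortical glutamatergic markers Tbr1 and Slc17a7 were at -0.34 and -0.28 (ethanol minus control, log2), both called lower. The probes of the GABAergic marker Gad1 were at 0.29 and 0.33 and Syt1 was at 0.14, none of them called. The mean level of the neuronal list ran from 11.23 to 11.66 in ethanol-treated mice and from 11.25 to 11.63 in controls. Of 5 astrocyte markers 4 were tested and 1, Aqp4, was called higher (0.50), while Slc1a3 (0.18), Aldh1l1 (-0.03) and Gja1 (0.01) were not called. The mean level of that list ran from 10.45 to 10.97 in ethanol-treated mice and from 10.26 to 10.90 in controls. All 5 oligodendrocyte markers and all 5 microglial markers were tested and 0 were called, with list means from 10.42 to 11.70 against 10.31 to 11.37 and from 8.12 to 8.33 against 8.15 to 8.36. Of the olfactory bulb list 2 of 5 were tested and 0 called, of striatum 3 of 6 and 0, and of choroid plexus 0 of 3 were tested. On chip 3 the median difference was -0.24 for neuronal markers (1 probe called higher and 2 lower), 0.33 for astrocyte markers (2 higher) and 0.39 for olfactory bulb markers (1 higher). It was -0.42 for oligodendrocyte, -0.03 for microglial and -0.20 for striatal markers, with 0 called in each. The oligodendrocyte median was the value of the brightest Mbp probe, and the other Mbp probes were at 0.27 and 0.23 on chip 3. The part of cell composition in the differences of the calcium transporters was not tested.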

How the data were processed

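The table that the authors deposited is the unnormalized array output: per probe and array a mean intensity on a linear scale and a detection p-value against negative controls, and as other values the bead standard error and bead number. The submitters' processing notes name lumi and limma, without versions. All columns were matched to mice through chip and position (0 without a sample). From the intensities, a variance-stabilizing transform after lumi's and quantile normalization were computed in R 4.3.3, giving log2 values. Probes detected at p below 0.01 on at least 24 of 32 arrays (10187) were tested with limma 3.58.1 without covariates, Benjamini-Hochberg over all of them and a call at an FDR below 1%. Correlations used Python 3.11.15 with scipy 1.17.1. Members, gene lists and tests were chosen with earlier results of these data known. Named genes are all members, called calcium-handling genes, tested pump partners and the 5 most alike genes of Atp2b1 and Slc8a2. Cell type markers come from lists, and other genes are named as chosen after their values were seen. Each mouse is 1 sample. Members were read by 19 to 69 beads per array, and the number of arrays limits the precision. On simulated data with a log2 change of 0.3, 193 of 200 probes were recovered over all arrays (2 false calls), 0 within chip 3 and 45 for chip 3 against between chips, and with 0.5, 171 within chip 3. The simulated arrays had no effect of chip or position, whereas treatment largely coincides with chip in the data. These recoveries and false calls therefore do not carry over to the comparison over all arrays. Alternatives were log2 of the signal, normexp (offset 16), median scaling, other detection filters, chip and position as terms, matched positions and left-out arrays, some of them chosen after seeing the data (matched positions, leaving out control mouse C66 from the comparisons by chip).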

Additional observations from a re-analysis of the deposited data

Results flagged for a closer look

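In 45 sets of 4 to 8 arrays, Dixon's ratio marked 1 array each in 2 member probes, where chance marks about 1 in 20 sets. For Atp2b1, ethanol-treated mouse A3 was lowest on chip 1 at 9.07, with the nearest mouse at 9.19 (gap over range 0.582, n = 8), still above the 8 controls of chip 4 and below the highest control of chip 3. For ILMN_2677687 of Atp2b3, ethanol-treated mouse A50 was highest on chip 3 at 7.59, with the nearest mouse at 7.53 (0.841, n = 4), on a probe at 1.33 times the undetected level. The Atp2b1 difference within chip 3 was smaller than that between chips by 0.38, which is -0.38 on the log2 scale. These are values by which the gene was chosen, so this is a description and no test.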

How the results depend on the processing

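No paired analysis was possible because ethanol-treated and control mice share no replicate number. Member probes called in the ethanol comparison numbered 4, and 2 with median scaling, 1 with chip as a fixed block, 2 with chip as a random block, 0 with chip and position and 2 for chips 1 and 2 against chip 4. They numbered 3 with normexp, 3 without a detection filter, 3 with position as the only term and 3 without control mouse C66. ILMN_3113303 of Atp2b2 lost its call in each of these settings. Over all probes, median scaling left 74 calls, 44 of them higher (59.5%, against 42.4%). No called member changed direction. Of 134 alternative values of the members over all arrays 122 stayed within the spread or on their side and 12 moved, and all 72 that left out an array of chip 3 stayed. For odd against even positions an FDR below 10% gave 2 in place of 0. For the difference within chip 3 against that between chips, which is no test of the members, 1 member was called, 0 with median scaling, 2 below 10% and 1 whenever an array of chip 3 was left out. Of all calls there, 189 of 364 were higher, and 2 of 116 with median scaling. Calcium-handling probes called numbered 2, and 0 with median scaling, 5 below 10%, and 0 with chip as a random block or as a fixed block, with position or without. Within chip 3 they numbered 3, all higher, where the 2 were lower. Pairs of genes passing numbered 1, and 0 with normexp, 2 with median scaling and 4 when centred within the 2 treatment groups, which leaves differences between chips in. The causes were not tested. Differences of dim probes such as those of Slc8a2 are compressed by background.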

Other observations

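Calb2 (calretinin), a calcium buffer, was chosen here after its values were seen. Its probes were higher in ethanol-treated mice of chip 3 by 1.34 and 0.97 on the log2 scale (limma adjusted p = 0.0037 and 0.0010) and by 0.24 and 0.08 between chips 1 and 2 and chip 4 (adjusted p = 0.70 and 0.86). The difference between these comparisons was 1.11 (SE 0.697) and 0.89 (SE 0.445), not past the threshold (adjusted p = 0.33 and 0.20). The 2 tested olfactory bulb markers had a median difference of 0.39 within chip 3 and of 0.03 between chips. The part of tissue composition in the Calb2 differences was not tested. On chip 3 the sodium pump subunit Atp1b3 was higher by 0.38 (adjusted p = 0.0072), against 0.00 between chips. The difference between these comparisons was 0.38, not past the threshold (adjusted p = 0.025). Calcium-handling probes past it there were those of Slc24a6 and Letm1, also named after their values were seen, against 3.57% of all probes. Slc24a6 was at 0.15 within chip 3 and -0.15 between chips (difference 0.29, limma adjusted p = 0.0032). Letm1 was at -0.27 and 0.16 (difference -0.43, limma adjusted p = 0.0017).

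The probe most like ILMN_3113303 of Atp2b2 within sets was that of Camk2a (r = 0.82), a kinase subunit of excitatory neurons stimulated by calcium and calmodulin, and the probes of Islr2 (0.82), Lingo1 (0.82) and Spnb3 (0.80) followed, all chosen after their values were seen. The dimmer Atp2b2 probe was among the 5 nearest to ILMN_2677687 of Atp2b3 of all probes tested (r = 0.66). Both probes were near background, at 1.86 and 1.33 times the undetected level, and the Atp2b2 probe has no genomic position given. How much it picks up from Atp2b3 was not tested.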
